A study of Hevea brasiliensis with 6 samples.

Results

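The 10 largest contig clusters of a rubber tree (Hevea brasiliensis) leaf transcriptome were followed across 2 clones and 2 lengths of cold. The unigene IDs of the deposited tables have the form CL, a cluster number, .Contig and a contig number, or name a single unigene. The contigs were counted per cluster number, and every contig of the 10 clusters with the most contigs was taken, with ties given to the lower cluster number. These 10 clusters held 877 of 167072 unigenes (0.525%), and 1.29% of the 68027 contigs of all 16131 clusters. The ending _All, which every ID carries, is left off below. The leaves came from clone ‘Reken501’, described by the study as cold-sensitive, and clone ‘93-114’, described as cold-tolerant. Each clone was sampled without cold and after 1 h and 24 h at 4 °C. Plants were a year old and each library was made from the mixed leaves of 3 plants, so there was 1 library for each of the 6 conditions and the spread between plants cannot be measured. Every interval and p-value below covers counting error between 2 libraries, compares those libraries and not the conditions, and treats fragments as independent molecules.

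In assemblies that name unigenes in this way, a cluster gathers contigs that share stretches of sequence, and a contig outside any cluster is listed singly. Contigs of 1 cluster can be splice forms or alleles of a single gene, copies of related genes, or partial assemblies of the same transcript. In plants, large clusters of this kind often come from multigene families and from repeated sequence. Which of these applied here was not tested, since the IDs carry no gene names and none matched the gene table used here. The contigs are therefore described by cluster and number, and no role is given to any of them.

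CL351 was the largest cluster with 133 contigs, followed by CL416 with 125, CL2 with 95 and CL339 with 81. CL307 held 78 contigs, CL47 held 77, CL276 held 76, CL1020 held 75, CL52 held 71 and CL701 held 66. CL1943, also with 66 contigs, fell just outside by its higher number, and CL409 with 65 came next. The median cluster of the assembly held 3 contigs, and 1097 clusters held at least 10. The contigs of the 10 clusters were long, with a median of 3126 bases against 1150 for all cluster contigs and 404 for all unigenes. Only 27 of the 877 (3.08%) were under 500 bases, against 55.6% of all unigenes.

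Each library held between 20.4 M and 21.9 M fragments assigned to unigenes. The 877 contigs took 41756 to 64671 of them, or 0.195% to 0.318% of a library. None of the 877 was without a fragment in all 6 libraries, and 727 were read in each of the 6. A mean of at least 10 fragments over the 6 libraries was reached by 651 (74.2%), against 54.0% of all unigenes. Per length the contigs were low. The median FPKM (fragments per kilobase of contig and per M fragments of the library) of the 877 lay between 0.276 and 0.810 by library, and that of all unigenes between 0.836 and 1.38.

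Many contigs of a cluster carried nearly the same count, so they were not separate observations. Of the 651 contigs with a mean of at least 10 fragments, 386 (59.3%) had another contig of the cluster whose counts lay within 10% or 1 fragment in all 6 libraries, against 11.5% of 11969 contigs in the other clusters of at least 10 contigs. Of the 877, 171 had the identical count as another contig of the cluster in all 6 libraries. In CL351, 43 contigs between 2818 and 4973 bases long held 78 to 93 fragments in the ‘Reken501’ control and 165 to 186 in ‘93-114’ after 1 h. In CL416, 18 contigs held 60 to 67 fragments in the first of these libraries and 15 to 17 in the second. CL701 had no such pair. Linked by this criterion, the 651 contigs formed 309 groups, and the counts of called contigs below are also given with each group counted once. How fragments that fit several contigs were counted is not given in the sources used here.

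**Figure D1:**
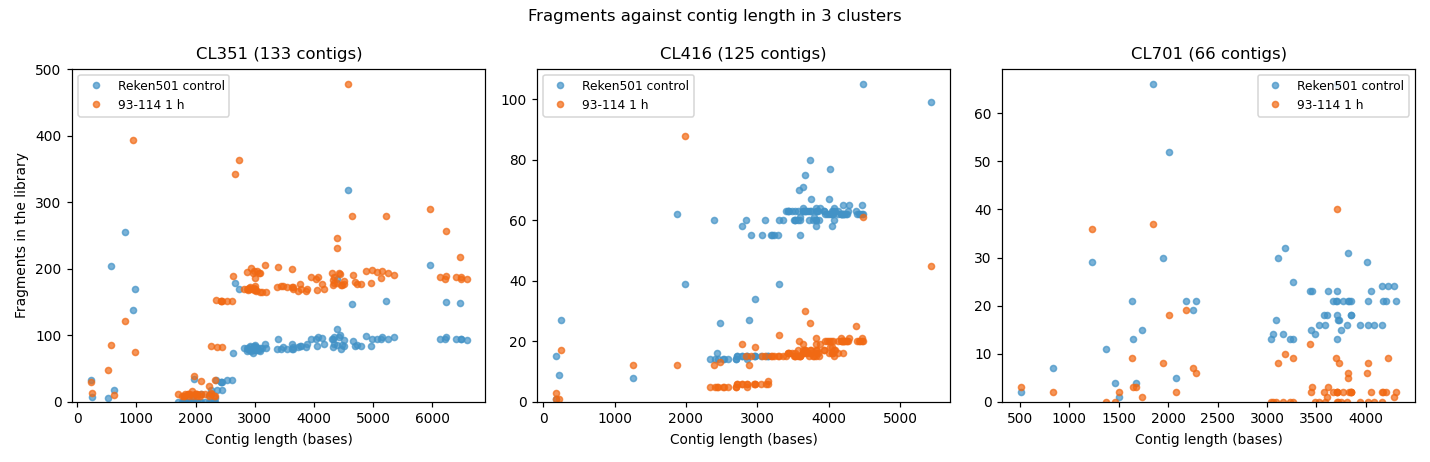
Fragments in the library (vertical axis) against contig length in bases (horizontal axis) for every contig of CL351, CL416 and CL701, in the ‘Reken501’ control (blue) and the 1 h library of ‘93-114’ (orange). In CL351 and CL416 the points form flat bands, in which contigs of different length hold nearly the same count, and in CL701 they are scattered.

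Few of these clusters were dominated by a single contig. The leading contig of a cluster in a library is here the contig with the highest FPKM, which corrects for length, and its share is its part of the summed FPKM of the cluster. Over 10 clusters and 6 libraries there were 60 leads, held by 16 contigs. A lead passed 50% of the summed FPKM only once, for CL47.Contig76 in ‘93-114’ after 1 h at 51.1%, and 13 leads were under 10%. Of the fragments of its cluster, CL47.Contig76 held only 11.9% in that library. CL339.Contig16 held 58.1% of the fragments of its cluster there, and 49.1% in ‘93-114’ after 24 h. The median leading share was 14.8%, 18.6% and 11.6% in the ‘Reken501’ control, 1 h and 24 h libraries, and 16.2%, 17.5% and 19.3% in those of ‘93-114’. Over all clusters of at least 10 contigs, most of them with fewer contigs, it was between 29.2% and 32.0%.

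The lead often rested on short contigs. Of the 60 leads, 22 were held by 7 contigs under 500 bases, and the contig with the most fragments was the leader by FPKM in only 20. Contigs under 500 bases held 6.90% to 17.1% of the summed FPKM of the 877. In 38 of the 60 the 95% exact binomial interval of the FPKM ratio to the second contig lay above 1, and the other 22 leads were within counting error. A lead does not depend on the scaling between libraries, because all contigs of a library are scaled alike.

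In 5 clusters the same contig led in all 6 libraries. These were CL2.Contig89, CL47.Contig76, CL276.Contig2, CL1020.Contig59 and CL52.Contig9. In the other 5 the leader changed with the clone, with the cold, or with both. Between the clones the leader differed in 4 of the 10 clusters in controls, 4 after 1 h and 2 after 24 h. The shares over all clusters of at least 10 contigs were 41.6%, 43.8% and 41.9%. Between cold and control in ‘Reken501’ it differed in 2 clusters at 1 h and 3 at 24 h, beside 23.2% and 23.3% of those clusters. In ‘93-114’ it differed in 3 at each time, beside 26.9% and 30.3%. Except between the clones at 24 h, each count was within 1 cluster of its background. The 2 contigs that exchanged the lead, compared with each other and not with the second contig, differed beyond counting error in both libraries for CL307 between control clones, CL351 and CL339 between clones at 1 h, CL339 between clones at 24 h, CL351 and CL307 in ‘Reken501’ at 24 h, and CL339 in ‘93-114’ at both times.

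**Figure D2:**
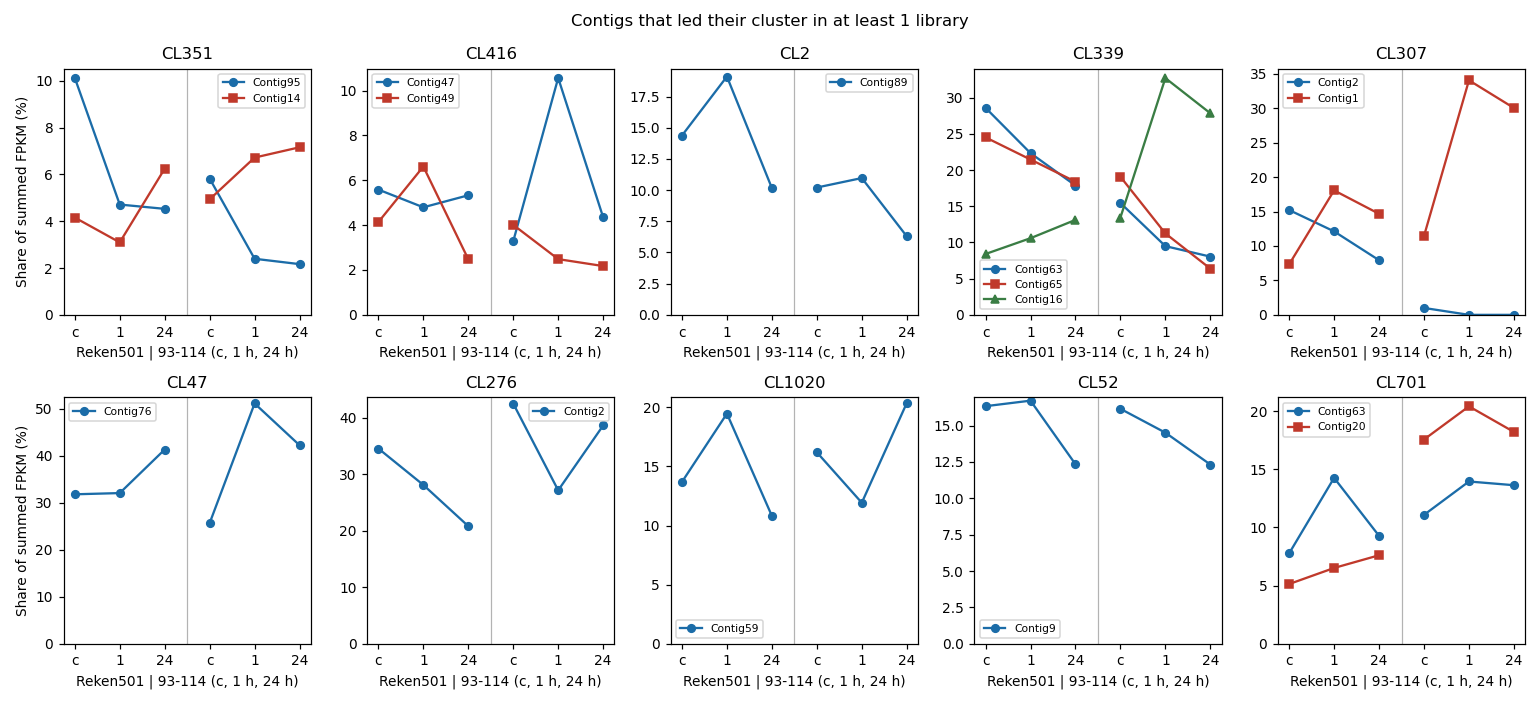
Share of the summed FPKM of the cluster (%, vertical axes differ between panels) for each contig that led in at least 1 library, in the ‘Reken501’ (left of the grey line) and ‘93-114’ (right) libraries, with c for control, 1 for 1 h and 24 for 24 h of cold. Lines join the 3 libraries of a clone. Contig16 of CL339 passed the short contigs Contig63 and Contig65 only in chilled ‘93-114’, reaching 32.7% at 1 h.

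In CL339 the lead passed from short contigs to the longest contig in chilled ‘93-114’. The FPKM of CL339.Contig16 (6911 bases, the most fragments of the cluster in every library) was 8.82, 9.14 and 12.1 in the ‘Reken501’ control, 1 h and 24 h libraries, and 17.1, 20.4 and 17.6 in those of ‘93-114’. All 3 libraries of ‘93-114’ were above all 3 of ‘Reken501’. The FPKM of CL339.Contig63 (358 bases) was 30.01, 19.3 and 16.4 in ‘Reken501’, against 19.6, 5.92 and 5.10 in ‘93-114’. It was highest in the control of each clone and lowest in chilled ‘93-114’. CL339.Contig65 (282 bases) gave 25.7, 18.5 and 16.9 in ‘Reken501’ and 24.2, 7.01 and 4.04 in ‘93-114’, the same order within each clone.

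The share of CL339.Contig16 was thus 13.4% in the ‘93-114’ control, 32.7% at 1 h and 27.9% at 24 h, against 8.41%, 10.6% and 13.1% in ‘Reken501’. In ‘93-114’ its FPKM was 2.91 times that of the second contig at 1 h (95% interval 2.15 to 4.04) and 3.46 times at 24 h (2.54 to 4.86). The leads of Contig63 and Contig65 in the other 4 libraries were each within counting error. By library totals CL339.Contig16 itself was called only between the clones at 1 h, with a log2 ratio of 1.16 (exact binomial test, adjusted p = 1.66e-140). Its log2 ratio in the cold in ‘93-114’ was 0.26 at 1 h and 0.048 at 24 h. With TMM factors, a scaling that takes most unigenes as unchanged between libraries, these became 0.94 and 0.68, without a call. With DESeq2 size factors, another scaling, Contig16 was also called higher between the clones at 24 h (1.06). CL339.Contig63 was lowered in ‘93-114’ with log2 ratios of -1.72 at 1 h and -1.93 at 24 h (exact test, adjusted p = 1.1e-12 and 3.83e-15). CL339.Contig65 was lowered there with log2 ratios of -1.78 and -2.56 (adjusted p = 6.68e-13 and 1.01e-20). With TMM factors the falls were smaller and still called, at -1.04 and -1.3 for Contig63 and -1.09 and -1.93 for Contig65. CL339.Contig3 (2076 bases) held 322, 219 and 191 fragments in ‘Reken501’ and 193, 34 and 47 in ‘93-114’. Its chilled ‘93-114’ libraries were far below the other 4, with log2 ratios of -2.55 and -2.13 against the control (adjusted p = 6.41e-28 and 4.95e-23).

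In CL351 the leader by FPKM changed with cold in both clones, but not at the same time. The FPKM of CL351.Contig95 (575 bases) was 16.7, 4.87 and 8.53 in ‘Reken501’, against 13.8, 6.96 and 6.74 in ‘93-114’, highest in the controls. The FPKM of CL351.Contig14 (948 bases) was 6.86, 3.20 and 11.8 in ‘Reken501’, against 11.7, 19.5 and 22.3 in ‘93-114’. Its lowest library was ‘Reken501’ at 1 h and its highest were those of chilled ‘93-114’. Contig95 led in both controls and in ‘Reken501’ at 1 h, each time within counting error of CL351.Contig94 (807 bases). Contig14 led in ‘Reken501’ at 24 h by 1.38 times (95% interval 1.09 to 1.75), and in ‘93-114’ by 2.74 times at 1 h (2.23 to 3.39) and 2.92 times at 24 h (2.41 to 3.56). Contig95 and Contig14 differed beyond counting error in both libraries for ‘Reken501’ at 24 h, but not for ‘93-114’ at either time. By fragments CL351.Contig56 led every library but ‘93-114’ at 24 h, where another contig led.

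Contig95 and Contig94 fell in ‘Reken501’ at 1 h, with log2 ratios of -1.77 and -1.61 (exact test, adjusted p = 7.88e-18 and 1.75e-19), and Contig14 with one of -1.09 (adjusted p = 6.76e-06), the last not called with TMM factors (-0.997). Contig14 was not called in chilled ‘93-114’, where its log2 ratio was 0.74 at 1 h and 0.93 at 24 h. With TMM factors these became 1.43 and 1.56 and both were called raised. Between the clones at 1 h Contig14 was 6.06 times higher in ‘93-114’ (adjusted p = 4.22e-57). CL351.Contig21, Contig25 and Contig46 were among the 2 called contigs with the largest rise in at least 1 comparison, of those with at least 100 fragments in the 2 libraries. CL351.Contig21 held 30, 18 and 84 fragments in ‘Reken501’ and 89, 152 and 138 in ‘93-114’, and CL351.Contig25 held 33, 18 and 88, and 87, 152 and 141. At 1 h both were 8.31 times higher in ‘93-114’ (adjusted p = 1.96e-26 each) and differed from each other by at most 4 fragments in any library. CL351.Contig46 held 18, 8 and 54 fragments in ‘Reken501’ and 32, 84 and 69 in ‘93-114’, and rose in ‘93-114’ at 1 h by 1.32 on the log2 scale (adjusted p = 3.7e-05). CL351.Contig56, with the most fragments of the cluster over the 6 libraries, took between 1.55% and 2.23% of the summed FPKM. The longest, CL351.Contig24 (6581 bases), took 0.402% to 0.522%.

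In CL701 the leader went with the clone at all 3 times. The FPKM of CL701.Contig63 (1851 bases) was 1.68, 1.99 and 1.38 in ‘Reken501’, against 2.47, 0.941 and 0.887 in ‘93-114’. The FPKM of CL701.Contig20 (1231 bases) was 1.11, 0.910 and 1.13 in ‘Reken501’, against 3.91, 1.38 and 1.19 in ‘93-114’. Contig63 led every ‘Reken501’ library and Contig20 every ‘93-114’ library. The margin exceeded counting error in only 2 of the 6, namely ‘Reken501’ at 1 h (2.19 times, 1.37 to 3.62) and the ‘93-114’ control (1.58 times, 1.18 to 2.13). Contig20 was higher in ‘93-114’ in the control comparison, with a log2 ratio of 1.80 (exact test, adjusted p = 1.76e-09), and not called at 1 h (0.59) or 24 h (0.070). It was lowered in ‘93-114’ at 1 h and 24 h, with log2 ratios of -1.49 and -1.71 (adjusted p = 2.46e-07 and 5.56e-09). With TMM factors these became -0.81 and -1.08 and neither was called. CL701.Contig29, which held the most fragments of the cluster over the 6 libraries, had 66, 71 and 79 in ‘Reken501’ and 86, 40 and 43 in ‘93-114’, lowest in chilled ‘93-114’. The longest contig, CL701.Contig46 (4308 bases), held 21, 8 and 11, and 10, 2 and 1, and was called in no comparison.

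CL307 was, of the 10, the cluster whose composition by FPKM differed most between the clones. The difference of composition is here the summed absolute difference of the FPKM shares of all contigs, halved, so that 100% means no shared contig. Between the clones it was 44.2% for CL307 in controls, 50.5% at 1 h and 47.8% at 24 h, beside medians of 22.3%, 24.2% and 21.6% over clusters of at least 10 contigs. At 24 h CL276 was close behind with 47.1%. By shares of fragments CL276 came before CL307 in controls (34.2% and 30.5%) and at 24 h (47.5% and 31.0%). CL307.Contig41 (3666 bases) held 150, 82 and 90 fragments in ‘Reken501’ and 13, 3 and 5 in ‘93-114’. CL307.Contig2 (445 bases) held 41, 23 and 18, and then 2, 0 and 0. Both contigs were higher in every ‘Reken501’ library than in any ‘93-114’ library.

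Contig41 was lowered in ‘93-114’ against ‘Reken501’ with log2 ratios of -3.42 in controls and -4.06 at 24 h (exact test, adjusted p = 6.16e-28 and 4.47e-20). At 1 h, with 3 fragments, it was 27.1 times lower (95% counting interval 8.95 to 134). Contig2 was 19.7 times lower in controls (5.11 to 168). Against a floor of 3 fragments in the library where it was not read, it was at least 7.60-fold lower at 1 h and at least 6.09-fold lower at 24 h. Contig2 led the cluster in the ‘Reken501’ control with 15.2% of the summed FPKM, a lead within counting error of CL307.Contig69 (1.59 times, 0.894 to 2.94). CL307.Contig1 (428 bases) led the other 5 libraries. It held 19, 33 and 32 fragments in ‘Reken501’ and 22, 21 and 20 in ‘93-114’, and was called in no comparison. Its share was 34.1% and 30.04% in chilled ‘93-114’, where the whole cluster held 238 and 367 fragments, and 7.34% to 18.1% elsewhere. The longest contig, CL307.Contig62 (5072 bases), held 48, 26 and 27 in ‘Reken501’ and 16, 4 and 9 in ‘93-114’, without overlap.

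A contig with the opposite pattern, CL307.Contig42, was noticed after its values were seen. It held 0, 4 and 5 fragments in ‘Reken501’ and 43, 39 and 52 in ‘93-114’. Every ‘93-114’ library was above every ‘Reken501’ library. Against the floor of 3 fragments it was at least 14.9-fold higher in the ‘93-114’ control. By library totals it was the only one of the 877 called higher in ‘93-114’ at all 3 times, beside 2.02% of the unigenes. With TMM factors there were 10, beside 2.66%, among them CL351.Contig21, CL351.Contig25, CL2.Contig35 and CL2.Contig47. Lowered in ‘93-114’ at all 3 times were 7 of the 877 (0.798%, beside 2.85%), namely CL307.Contig2, CL307.Contig41, CL276.Contig8, CL276.Contig16, CL276.Contig73, CL52.Contig5 and CL2.Contig94. With TMM factors CL2.Contig94 dropped out and the other 6 stayed. Of these 7, CL276.Contig16 and CL2.Contig94 were also named after their values were seen.

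CL416 was led by short contigs with few fragments. The leads were held by CL416.Contig47 (244 bases; 27, 29 and 43 fragments in ‘Reken501’, then 24, 17 and 24 in ‘93-114’) and CL416.Contig49 (183 bases; 15, 30 and 15, then 22, 3 and 9). These counts were small, and the lead exceeded counting error only for Contig47 in ‘Reken501’ at 24 h (2.15 times, 1.17 to 4.17). The summed FPKM of the cluster was spread over many contigs. The number of equally used contigs that would give the same FPKM shares was between 44.9 and 97.2 of the 125 contigs by library. The lowest value of all 10 clusters was 3.73, for CL47 in ‘93-114’ at 1 h. At 1 h in ‘93-114’ nearly the whole of CL416 was low. CL416.Contig61 held 65, 85 and 98 fragments in ‘Reken501’ and 102, 16 and 76 in ‘93-114’, and CL416.Contig98 held 67, 75 and 92, and 104, 16 and 71. In both the ‘93-114’ library at 1 h was far below the other 5, with log2 ratios of -2.70 and -2.72 against the control (exact test, adjusted p = 7.35e-16 and 2.42e-16). The longest contig, CL416.Contig60 (5439 bases), fell with them, with a log2 ratio of -2.18 (adjusted p = 1.22e-23). CL416.Contig56 (4486 bases), with the most fragments of the cluster over the 6 libraries, held 105, 131 and 221 in ‘Reken501’ and 163, 61 and 152 in ‘93-114’, again lowest at 1 h in ‘93-114’.

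CL416.Contig124 (1981 bases) went apart from the rest of its cluster. It held 39, 90 and 109 fragments in ‘Reken501’ and 107, 88 and 60 in ‘93-114’. Its lowest library was the ‘Reken501’ control, and ‘93-114’ at 1 h was not low. In ‘Reken501’ it was raised by 1.18 at 1 h and 1.45 at 24 h on the log2 scale (exact test, adjusted p = 0.000215 and 2.69e-07), and its log2 ratio in ‘93-114’ at 1 h was -0.34 without a call. Its share of the summed FPKM was therefore 6.73% in ‘93-114’ at 1 h, against 0.994% to 1.83% in the other 5 libraries.

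CL276 had a steady leader and a second contig that was low in ‘93-114’. The FPKM of CL276.Contig2 (1240 bases) was 22.2, 22.1 and 15.2 in ‘Reken501’, against 20.8, 14.6 and 11.5 in ‘93-114’. It led all 6 libraries beyond counting error, with 20.8% to 42.5% of the summed FPKM. CL276.Contig8 (1728 bases) held 340, 384 and 368 fragments in ‘Reken501’ and 20, 26 and 10 in ‘93-114’. The clones did not overlap, and the 3 libraries of ‘Reken501’ were alike. It took 13.2% to 14.5% of the cluster in ‘Reken501’ and 0.889% to 1.32% in ‘93-114’. The log2 ratios between the clones were -3.99 in controls, -3.85 at 1 h and -5.16 at 24 h (exact test, adjusted p = 1.89e-71, 2.9e-80 and 4.49e-94), each called under every scaling tried.

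Other contigs of CL276 were called raised by cold, CL276.Contig41 in ‘Reken501’ and CL276.Contig68 in ‘93-114’. CL276.Contig41 held 22, 90 and 94 fragments in ‘Reken501’ and 6, 3 and 1 in ‘93-114’, so the chilled ‘Reken501’ libraries were the high ones. In ‘Reken501’ it was raised 3.98 times at 1 h and 4.13 times at 24 h (exact test, adjusted p = 4.18e-09 and 4.66e-10), and between the clones at 1 h it was 29.7 times lower in ‘93-114’ (95% counting interval 9.86 to 147). CL276.Contig68 held 42, 76 and 79 fragments in ‘Reken501’ and 52, 185 and 108 in ‘93-114’, highest in ‘93-114’ at 1 h. There it was raised 3.39 times against the control (adjusted p = 5.35e-16) and was the second contig of the cluster in both chilled ‘93-114’ libraries. In ‘Reken501’ its log2 ratios were 0.83 and 0.88, without a call. The difference between the clones in these cold responses was not tested. The longest contig, CL276.Contig73 (3189 bases), held 58, 65 and 56 fragments in ‘Reken501’ and 15, 13 and 9 in ‘93-114’, again without overlap.

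CL52 was the cluster whose summed level differed most between the control libraries, with a log2 ratio of 1.28. The FPKM of CL52.Contig9 (2505 bases) was 14.1, 15.1 and 12.6 in ‘Reken501’, against 33.3, 9.17 and 8.87 in ‘93-114’. The ‘93-114’ control stood above the other 5. Contig9 was 2.36 times higher in ‘93-114’ in controls (exact test, adjusted p = 9.13e-91) and was lowered in ‘93-114’ with log2 ratios of -1.86 at 1 h and -1.91 at 24 h (adjusted p = 3.72e-165 and 3.28e-174). It led the cluster throughout, with 12.3% to 16.7%. CL52.Contig5 (2587 bases) held 569, 383 and 478 fragments in ‘Reken501’ and 76, 20 and 26 in ‘93-114’. Every ‘Reken501’ library was above every ‘93-114’ library, so it ran against its cluster in the controls.

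CL52.Contig5 was lowered in ‘93-114’ against ‘Reken501’ with log2 ratios of -2.84, -4.21 and -4.20 at the 3 times (exact test, adjusted p = 7.66e-88, 1.38e-85 and 5.06e-108), each called under every scaling. Its share was 7.65% to 12.0% in ‘Reken501’ and 0.576% to 0.699% in ‘93-114’. It was also called lowered by cold in ‘93-114’ (log2 ratios of -1.96 and -1.64), but not with TMM factors (-1.28 and -1.01). CL52.Contig11 (1843 bases) held 34, 58 and 33 fragments in ‘Reken501’ and 180, 75 and 65 in ‘93-114’, and the longest contig, CL52.Contig41 (3440 bases), held 49, 51 and 66, and 170, 53 and 62. In both the ‘93-114’ control was the high library, 5.45 and 3.59 times above the ‘Reken501’ control (adjusted p = 4.99e-25 and 1.3e-16).

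**Figure D3:**
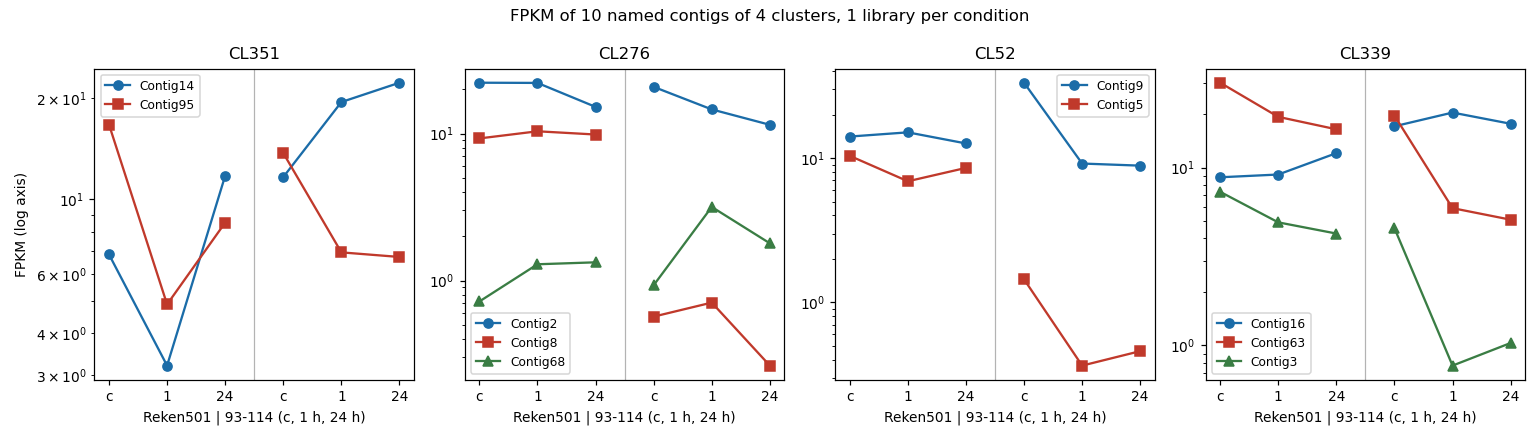
FPKM (log axis) of 10 named contigs of CL351, CL276, CL52 and CL339 in the ‘Reken501’ (left of the grey line) and ‘93-114’ (right) libraries, with c for control, 1 for 1 h and 24 for 24 h of cold. Contig8 of CL276 and Contig5 of CL52 were lower in all 3 ‘93-114’ libraries than in any of ‘Reken501’, while the leaders of the same clusters, Contig2 and Contig9, were read at high levels in both clones.

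CL2 was led by the same contig throughout, and 51 of its contigs were lowered at 1 h in ‘Reken501’. The FPKM of CL2.Contig89 (1711 bases) was 29.7, 26.7 and 24.0 in ‘Reken501’, against 17.8, 11.2 and 10.8 in ‘93-114’. Each ‘Reken501’ library was above each ‘93-114’ library. Contig89 led all 6 libraries beyond counting error, by 1.42 to 2.16 times over CL2.Contig88 (6058 bases), which held the most fragments (1762, 1704 and 1702, then 1324, 1013 and 840). Contig89 was called lowered in ‘93-114’ against ‘Reken501’ at 1 h and 24 h (log2 ratios of -1.25 and -1.15; exact test, adjusted p = 8.42e-52 and 1.48e-41), but not with TMM factors (-0.77 and -0.71).

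CL2.Contig66 (4809 bases) held 181, 31 and 231 fragments in ‘Reken501’ and 157, 65 and 217 in ‘93-114’. It was low at 1 h in both clones and at 24 h it was above its control in both. CL2.Contig68 had the same count in 4 of the 6 libraries and was 1 or 2 fragments higher in the others. Both were lowered at 1 h with log2 ratios of -2.54 in ‘Reken501’ and -1.33 in ‘93-114’ (exact test, adjusted p = 4.21e-25 and 1.21e-09), of which the call in ‘93-114’ was lost with TMM factors (-0.64). The longest of all 877 contigs, CL2.Contig8 (10549 bases), had the same order, with 204, 59 and 280 fragments in ‘Reken501’ and 166, 81 and 230 in ‘93-114’. CL2.Contig76 (2371 bases) held 7, 10 and 20 fragments in ‘Reken501’ and 18, 44 and 98 in ‘93-114’, lowest in the control of each clone and highest at 24 h. In ‘93-114’ at 24 h it was raised 4.94 times against the control (adjusted p = 5.4e-12). CL2.Contig47 (1918 bases) held 18, 24 and 36, and 52, 50 and 98, and was 2.66 times higher in ‘93-114’ at 24 h (adjusted p = 1.23e-06). CL2.Contig35 (1908 bases) held 42, 48 and 68 in ‘Reken501’ and 229, 155 and 124 in ‘93-114’, without overlap, and was 5.63 times higher in ‘93-114’ in controls (adjusted p = 1.95e-32).

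CL47 was the cluster whose leading contig stood furthest above the second contig by FPKM in every library. By share of the summed FPKM, CL276.Contig2 was higher in both controls (34.6% and 42.5%, against 31.8% and 25.7% for CL47.Contig76). In the chilled libraries CL47.Contig76 had the highest share. The FPKM of CL47.Contig76 (223 bases) was 57.9, 40.6 and 47.8 in ‘Reken501’, against 36.1, 29.3 and 25.0 in ‘93-114’. Each was 6.83 to 9.12 times that of the second contig. These FPKM values came from 274, 194 and 230 fragments in ‘Reken501’ and 164, 139 and 122 in ‘93-114’, or 4.24% to 11.9% of the fragments of the cluster. Contig76 was called in none of the 7 comparisons. The rest of the cluster held fewer fragments in the cold. The longest contig, CL47.Contig63 (2899 bases), held 159, 123 and 78 fragments in ‘Reken501’ and 183, 53 and 59 in ‘93-114’, lowest in chilled ‘93-114’, with log2 ratios there of -1.84 and -1.73 (exact test, adjusted p = 1.17e-17 and 1.27e-16). CL47.Contig44 (2163 bases) held 103, 63 and 49, and 65, 19 and 25, and was lowered in ‘Reken501’ at 24 h with a log2 ratio of -1.09 (adjusted p = 9.94e-05). That call was lost with totals without the 100 most-read unigenes (-0.997).

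CL1020 was thinly read. It held 688 to 1462 fragments in a library. The FPKM of CL1020.Contig59 (820 bases) was 1.32, 1.99 and 1.92 in ‘Reken501’, against 1.98, 1.03 and 2.61 in ‘93-114’. These came from 18 to 47 fragments, and the lead exceeded counting error in all libraries but ‘93-114’ at 1 h. CL1020.Contig67 (9192 bases) held 141, 182 and 203 fragments in ‘Reken501’ and 75, 115 and 173 in ‘93-114’, lowest in the control of each clone. It was raised 2.13 times in ‘93-114’ at 24 h (exact test, adjusted p = 1.57e-07), 1 of only 2 calls of a rise in this cluster among the 7 comparisons. The ‘Reken501’ control had no fragment on 44 of the 75 contigs of CL1020, which together held 65, 152, 96, 160 and 178 fragments in the other 5 libraries. It also had none on 21 contigs of CL351, each read in all 5 other libraries. These 2 clusters gave 65 of the 93 unread contigs of that library, while the other libraries had 16 to 55.

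Summed over contigs, the clusters ranged from 11.2 fragments per M (CL307 in ‘93-114’ at 1 h) to 999.6 (CL351 in ‘93-114’ at 24 h). These sums may count a fragment more than once where contigs share it. CL351 gave 454.6, 316 and 563 fragments per M in ‘Reken501’ and 675, 913 and 999.6 in ‘93-114’, so all 3 libraries of ‘93-114’ were above all 3 of ‘Reken501’. CL339 had the same order by a narrow margin, with 239.9 at most in ‘Reken501’ and 242.5 at least in ‘93-114’, and both clusters kept it under every scaling tried. CL276 had the opposite order by library totals (at least 109.9 in ‘Reken501’, 97.2 at most in ‘93-114’), and its clones overlapped under each of the other 3 scalings. CL416 gave 300.1, 355 and 505 in ‘Reken501’ and 486, 93.9 and 343 in ‘93-114’, so a single library was low. CL52 gave 224, 231 and 266 in ‘Reken501’ and 544, 167 and 190.3 in ‘93-114’, so a single library was high.

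The log2 ratio of the cluster sum against the control was -2.37 for CL416 in ‘93-114’ at 1 h (95% interval -2.44 to -2.30) and -0.50 at 24 h, the latter turning to 0.13 with TMM factors. In CL52 it was -1.71 (-1.76 to -1.65) and -1.52 (-1.57 to -1.46). CL307, CL47 and CL701 were also low in chilled ‘93-114’, with log2 ratios of -2.25, -1.78 and -1.82 at 1 h and -1.67, -1.54 and -1.80 at 24 h. Each of these lay below the median over clusters of at least 10 contigs, which was -0.74 and -0.72. In CL351 the log2 ratio in ‘93-114’ was 0.44 (0.41 to 0.47) and 0.57 (0.54 to 0.60). CL2 fell at 1 h in both clones, with -0.85 in ‘Reken501’ and -0.91 in ‘93-114’, and at 24 h stood at 0.29 and 0.11. With TMM factors the fall at 1 h was -0.75 in ‘Reken501’ and only -0.23 in ‘93-114’, and the values at 24 h were 0.37 and 0.74. For 12 of the 70 sums the sign changed with the scaling, among them CL339 in ‘93-114’ (-0.52 and -0.49, with TMM factors 0.16 and 0.14) and CL1020 in ‘93-114’ (-0.47 and -0.12, then 0.21 and 0.52).

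**Figure D4:**
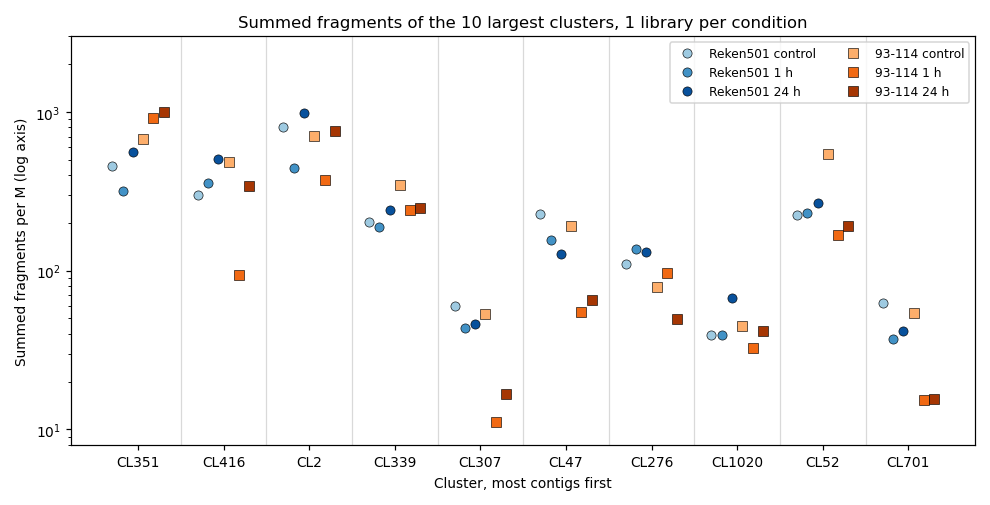
Summed fragments per M (log axis) of each of the 10 largest clusters, ordered by number of contigs, in the 3 ‘Reken501’ libraries (blue circles) and the 3 ‘93-114’ libraries (orange squares), with darker colours for longer cold. Each point is 1 library. CL351 was higher in every ‘93-114’ library, CL416 had a low point at 93.9 in ‘93-114’ after 1 h, and CL52 a high point at 544 in the ‘93-114’ control.

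A contig was called where the exact conditional binomial test of its fragments in 2 libraries gave an adjusted p of 0.001 or less and the log2 ratio was at least 1 in size. Between the control libraries 80 of 870 tested contigs were higher in ‘93-114’ and 11 lower, beside 8.08% and 5.81% of all unigenes tested. Of the 80, 52 lay in CL52. Counted once per group of near-equal contigs, there were 44 and 10 of 309.

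After 1 h of cold 108 of 849 were higher in ‘93-114’ and 193 lower, beside 5.37% and 11.7% of all unigenes. CL351 gave 95 of the 108, and CL416 gave 116 and CL47 37 of the 193. Counted once per group these became 26 and 74, and with TMM factors 132 and 89. After 24 h 20 of 870 were higher and 69 lower, beside 4.12% and 9.8%. CL276 gave 32 of the 69 and CL351 12 of the 20. Counted once per group these became 13 and 45, and with TMM factors the split turned to 110 higher and 42 lower. For the clone comparisons the shares over all unigenes are given by library totals only.

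In ‘Reken501’ after 1 h 5 of 857 were raised and 56 lowered, beside 1.18% and 2.03% of all unigenes. The 5 were CL416.Contig124 and CL276.Contig41, described above, and 3 named after their values were seen. CL351.Contig100 held 5, 32 and 50 fragments in ‘Reken501’ and 86, 47 and 44 in ‘93-114’, lowest in the ‘Reken501’ control. CL276.Contig34 held 6, 31 and 18, then 28, 34 and 31, with the same library lowest. CL1020.Contig63 held 0, 18 and 8, then 4, 9 and 6, and was at least 5.94-fold higher at 1 h than a floor of 3 fragments in the control. Of the 56, 51 were contigs of CL2, and counted once per group the 56 became 20. After 24 h 31 of 867 were raised and 20 lowered, beside 4.0% and 3.67%. CL416 gave 17 and CL351 10 of the 31, and CL47 gave 19 of the 20. Counted once per group these became 12 and 9, and with TMM factors 37 and 2. Of the 37, 27 were not called raised in ‘93-114’. These were 3.08% of the contigs listed, beside 2.48% of all unigenes. The 2, lowered in ‘Reken501’ alone, were 0.228%, beside 2.21% of all unigenes.

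In ‘93-114’ after 1 h 8 of 865 were raised and 322 lowered, beside 1.44% and 10.9% of all unigenes. The 322 lay in CL416 (106), CL52 (62), CL2 (49), CL47 (41), CL339 (32), CL307 (25), CL701 (6) and CL351 (1, CL351.Contig133). Counted once per group they became 126, and with TMM factors the split was 120 raised and 150 lowered. None of these TMM calls was shared with ‘Reken501’. The 120 were 13.7% of the contigs listed, beside 3.63% of all unigenes raised in ‘93-114’ alone. The 150 were 17.1%, beside 1.83% of all unigenes lowered in ‘93-114’ alone. Of the 8 raised, CL351.Contig27, Contig28 and Contig46 differed from each other by at most 1 fragment in any library. CL2.Contig27 held 11, 47 and 81 fragments in the ‘93-114’ control, 1 h and 24 h libraries and CL2.Contig81 held 6, 32 and 57, rising while 49 contigs of CL2 were lowered at 1 h. The other 3 were CL276.Contig18, Contig68 and Contig70. After 24 h 8 of 864 were raised and 138 lowered, beside 3.0% and 12.5%. CL52 gave 59 of the 138, CL47 38 and CL339 18, while CL416 gave none and CL2 gave 3 (CL2.Contig4, Contig19 and Contig92). Of the 8 raised, 5 were contigs of CL2 (Contig3, Contig27, Contig76, Contig81 and Contig86), and the others were CL351.Contig9, CL276.Contig70 and CL1020.Contig67. These contigs were read out as the calls of a count of 8 or fewer and, where not named above, were named after their values were seen. Counted once per group the calls became 7 and 78, and with TMM factors the split turned to 134 raised and 20 lowered. Of the 134, 124 were not called raised in ‘Reken501’. These were 14.1% of the contigs listed, beside 4.04% of all unigenes. The 20, lowered in ‘93-114’ alone, were 2.28%, beside 2.33% of all unigenes.

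**Figure D5:**
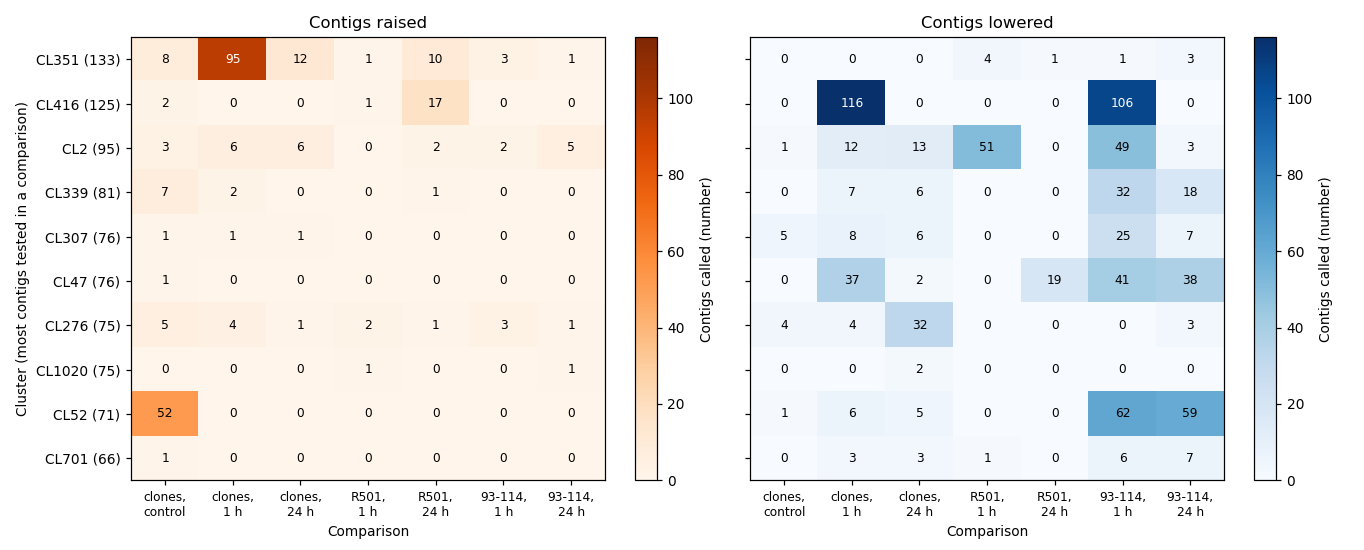
Number of contigs called raised (left, orange) and lowered (right, blue) in each cluster (rows, with the most contigs tested in a comparison in brackets) and each comparison of 2 libraries (columns); clones means ‘93-114’ against ‘Reken501’, R501 and 93-114 mean that clone chilled against its control. Some cells hold many calls, such as 95 raised contigs of CL351 and 116 lowered contigs of CL416 between the clones at 1 h. Contigs lowered in ‘93-114’ at 1 h were spread over several clusters, among them CL416 (106), CL52 (62) and CL2 (49). Libraries are scaled to their totals, and with TMM factors many of the lowered calls in ‘93-114’ were not made.

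The 2 chilled ‘93-114’ libraries had TMM factors of 0.768 and 0.796, against 1.07 to 1.23 in the other 4. Among 90162 unigenes averaging 10 fragments or more per library, the middle log2 ratio in ‘93-114’ was -0.68 at 1 h and -0.70 at 24 h by library totals, and 0.0067 and -0.070 with TMM factors. Between the clones it was -0.50 and -0.49 by totals, and -0.020 and -0.045 with TMM factors. Set against these medians, the 651 contigs of the clusters that passed the same filter were at -1.32 in ‘93-114’ at 1 h, well below the median unigene, and at -0.63 at 24 h, near it. In ‘Reken501’ they were at -0.20 at 1 h, beside -0.083 over unigenes, and at 0.42 at 24 h, beside -0.11. In the control comparison they were at 0.57, beside 0.11. Nearly equal contigs count separately in these medians, which describe the list and not 651 separate transcripts.

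How many cold calls the 2 clones shared depended on the scaling. By library totals 43 contigs were lowered in both clones at 1 h, which was 76.8% of the 56 lowered in ‘Reken501’ (beside 28.2% over all unigenes so called) and 13.4% of the 322 lowered in ‘93-114’ (beside 5.19%). At 24 h 19 were lowered in both, of the 20 lowered in ‘Reken501’ (beside 46.2% over unigenes), and these were 13.8% of the 138 in ‘93-114’ (beside 13.6%). Of the 56, 51 were contigs of CL2, and of the 20, 19 were contigs of CL47. Near-equal contigs count separately in these shares, so they describe mostly 1 cluster at each time and not separate transcripts. With TMM factors no contig was lowered in both clones at either time, of 54 and 150 lowered at 1 h and 2 and 20 at 24 h. Of all unigenes so called, 8.92% and 6.53% were shared at 1 h and 23.1% and 22.1% at 24 h. By totals none was raised in both clones. Over unigenes raised in ‘Reken501’ and in ‘93-114’ the shares were 5.62% and 4.56% at 1 h and 32.8% and 43.8% at 24 h. With TMM factors 10 were raised in both, all at 24 h. These were 27.0% of those raised in ‘Reken501’ (beside 43.7%) and 7.46% in ‘93-114’ (beside 32.2%). The only contig called in opposite directions by totals was CL351.Contig100, raised in ‘Reken501’ and lowered in ‘93-114’ at 24 h. A call in a single clone does not show that the responses differed, which was not tested.

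No contig that was well read in a clone was without a fragment in the other. Of 631 contigs with at least 10 fragments in every ‘Reken501’ library, 0 were without a fragment in all 3 of ‘93-114’, beside 0.634% of the unigenes read so. Of 511 with at least 10 in every ‘93-114’ library, 0 were without a fragment in ‘Reken501’, beside 0.805%. CL307.Contig2 was the only one of the 631 with at most 3 fragments in each ‘93-114’ library. The composition of the 10 clusters moved with cold by a median of 15.3% and 17.2% in ‘Reken501’ at 1 h and 24 h, beside 12.6% and 14.4% over clusters of at least 10 contigs. In ‘93-114’ it moved by 23.0% and 19.0%, beside 15.1% and 16.9%. Between the clones the medians were 17.6%, 23.3% and 21.0% at the 3 times. These shares are free of the scaling between libraries, and their counting error is larger in thinly read clusters such as CL307, CL1020 and CL701.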

How the data were processed

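RNA of mixed leaves of 3 plants per condition was sequenced by the authors as 1 library for each of 6 conditions. The deposited tables give, per unigene, its length, a fragment count and an FPKM value (fragments per kilobase and per M fragments) for each library, as computed by the authors. The study's methods describe mapping to a rubber tree genome with HISAT, then mapping to transcripts with Bowtie2 and estimation with RSEM. The deposited tables hold whole fragment counts of unigenes in clusters instead, and which assembler, aligner and counter gave them is not given in the sources used here. Deposited columns of the authors' own log2 ratios, p-values and FDR were not used. The FPKM recomputed from counts, lengths and library totals differed by at most 5.0e-05 from the deposited values. Counts were 20.4 M to 21.9 M fragments per library.

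With 1 library per condition no model with replicates can be fitted. Counts of 2 libraries were compared by the two-sided exact conditional binomial test after scaling to library totals, and p-values were adjusted by the Benjamini-Hochberg method across every unigene read in at least 1 of the pair. A unigene was called when its adjusted p did not exceed 0.001 and its log2 ratio, computed after adding 0.5 fragments, reached 1 in either direction, the thresholds of the study. The 7 comparisons were ‘93-114’ against ‘Reken501’ at each time, and 1 h and 24 h against the control in each clone. The procedure was tested on data simulated with counting error only. These held no spread between plants and no fragments shared between contigs, so the test does not cover either. Leading contigs were taken by FPKM. Shares of fragments carry 95% Wilson intervals and ratios 95% exact binomial intervals, for counting error only. Alternatives used TMM factors (edgeR 4.0.16), DESeq2 1.42.0 size factors, totals without the 100 most-read unigenes, other filters and thresholds, other definitions of the leading contig, and, chosen after seeing the data, leading contigs apart beyond counting error and near-equal contigs counted once. Analyses ran in R 4.3.3 and Python 3.11.15 with scipy 1.17.1.

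Named by rule were the contigs of each cluster that led by FPKM in any library, held the most fragments over the 6 libraries or were longest, per comparison the 2 called contigs with the largest rise and the 2 with the largest fall among those with at least 100 fragments in the 2 libraries, and contigs read in 1 clone alone. The clusters and rules were chosen with earlier results of these data known.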

Additional observations from a re-analysis of the deposited data

Results flagged for a closer look

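The summed level of 5 clusters moved in opposite directions against the control in the 2 clones, in CL416 at both times, counting only ratios whose 95% counting interval left out 0 in both clones. With 1 library per condition the difference between the clones was not tested. In each case the value given is the log2 ratio in ‘93-114’ minus that in ‘Reken501’.

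CL416 differed by -2.62 at 1 h (‘Reken501’ 0.24, ‘93-114’ -2.37) and by -1.25 at 24 h (0.75 and -0.50). CL52 differed by -1.76 at 24 h (0.24 and -1.52). CL351 differed by 0.96 at 1 h (-0.52 and 0.44), with the rise in ‘93-114’. CL276 differed by -0.91 at 24 h (0.25 and -0.67) and CL339 by -0.73 at 24 h (0.24 and -0.49). With TMM factors the ‘93-114’ values at 24 h became 0.13 in CL416, 0.14 in CL339 and -0.035 in CL276, so the directions were then no longer opposite in CL416 and CL339. With DESeq2 size factors CL276 also became positive, at 0.033. The ‘93-114’ value of CL52 at 24 h stayed negative under all scalings tried.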

How the results depend on the processing

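With 1 library per condition, leaving out a replicate was not possible. No paired analysis was possible because each condition has 1 library. Contigs called higher and lower in ‘93-114’ are given first for the clone comparisons and then for cold.

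With TMM factors, higher against lower calls at 24 h between the clones were 110 and 42 (20 and 69 by totals), and lower calls at 1 h were 89 (193). With DESeq2 size factors they were 112 and 42, and 89. Cold calls in ‘93-114’, raised and lowered, became 120 and 150 at 1 h (8 and 322) and 134 and 20 at 24 h (8 and 138) with TMM, and 120 and 147, and 161 and 14, with DESeq2. Lowered calls in ‘Reken501’ at 24 h became 2 and 11 (20). Totals without the 100 most-read unigenes gave 81 higher between the clones at 24 h, 0 lowered in ‘Reken501’ at 24 h, and 17 and 38 raised in ‘93-114’ at 1 h and 24 h. The cause was not tested.

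An adjusted p of 0.05 gave 141 higher and 37 lower between controls (80 and 11), 144 lower between clones at 24 h, 15 and 52 raised in ‘Reken501’ at 1 h and 24 h (5 and 31), 27 raised in ‘93-114’ at 1 h and 212 lowered at 24 h. A log2 ratio of 2 gave 13 higher between controls, 22 and 87 at 1 h (108 and 193) and 4 higher at 24 h. In ‘Reken501’ it gave 3 and 9 at 1 h (5 and 56) and 3 and 0 at 24 h, and in ‘93-114’ 1 and 166 at 1 h and 5 and 17 at 24 h. Near-equal contigs counted once gave 44 higher between controls, 26 and 74 at 1 h, and 13 and 45 at 24 h. In ‘Reken501’ they gave 20 lowered at 1 h and 12 and 9 at 24 h, and in ‘93-114’ 126 and 78 lowered. A mean of at least 10 fragments moved no count by more than 1.5 times.

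Clusters with another leader (4, 4 and 2 between clones, 2 and 3 in ‘Reken501’, 3 and 3 in ‘93-114’) became 2, 2, 0, 0, 1, 0 and 0 where the 2 contigs that exchanged the lead differed at least 1.5 times in both libraries, and 8, 9, 7, 5, 6, 6 and 6 of the 20 largest clusters. Where those 2 contigs differed beyond counting error in both libraries they became 1, 2 and 1 between clones, 0 in ‘Reken501’ at 1 h, and 1 and 1 in ‘93-114’. Leading by fragments gave 0 in ‘Reken501’ at 24 h, and contigs of at least 500 bases gave 1 there at 1 h. By fragments, the median leading share fell from 16.2% to 8.54% in the ‘93-114’ control and from 19.3% to 12.1% at 24 h. The 10 clusters were the same by highest contig number.

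Clusters with a summed log2 ratio above 0 numbered 2 at 1 h and 24 h between the clones and in ‘93-114’. With TMM and with DESeq2 they became 5 and 5 between clones at 1 h, 4 and 4 in ‘93-114’ at 1 h, and 5 and 6 at 24 h. With DESeq2 they were 4 between clones at 24 h. With FPKM summed over contigs they were 1 and 1 between the clones at 1 h and 24 h.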
